A study of Mus musculus with 8 samples.

Results

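Zinc finger genes encode proteins that fold short loops of the chain around a zinc ion, and in most of them a row of such loops reads DNA. In many mouse members the fingers are joined to a KRAB domain, which calls in the co-repressor Trim28 and silences the bound region, to a SCAN domain, which pairs such proteins with each other, or to a BTB domain. Embryonic stem (ES) cells use several of them: Zfp57 keeps the DNA methylation of imprinted regions, and Zscan4 is made in two-cell embryos and in a small, shifting share of cultured ES cells. Primitive endoderm (PrEn), the extra-embryonic layer that marks the first divergence from the epiblast, is set up by other zinc finger proteins of the GATA family.

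The members were all genes whose symbol, in the study's list of differing genes, starts with Zfp and a digit, Zscan, Zbtb or Zic and a digit. There were 16 of them among 1998 named probes that could be used, out of 42006 probes on the array. Of these, 14 begin with Zfp, 1 with Zscan, 1 with Zbtb and 0 with Zic, each read by 1 probe. RefSeq now lists Zfp294 as Ltn1 and Zfp371 as Zscan5b. The study made its list from differences among fractions on these same arrays, so the fraction differences given here describe the members and are no independent evidence of any direction. By the scanner software's flag all 16 were well above background in every sample, although Zfp672 was dim, and all were tested.

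The 8 samples came from clone 5.1 and clone 16.1, separately targeted HV clones, which the sample labels call HIV. They are 129/Ola ES cells of a parent line that makes the bacterial ligase BirA, with a knock-in that places a Hex cDNA carrying a BirA site, and Venus behind an internal ribosome entry site, in the Hex locus. After 24 h with LIF, cells were sorted by Venus (V) and by SSEA-1 (S), a surface sugar of undifferentiated ES cells, into 4 fractions. The Venus-negative, SSEA-1 positive fraction (V-S+) is given first below, then V+S+ with both, V-S- with neither, and last V+S-, and this is called the fraction order. Each clone gave 1 sample per fraction, so a fraction holds 2 samples, and the 4 arrays of a clone shared a slide that held no other, which leaves the effects of clone and slide inseparable. Every value is the log2 ratio of sample (Cy3) to a reference RNA pooled from cell lines (Cy5), which is comparable between samples but not between genes.

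The median Cy3 signal lay between 2.36 and 2.87 times local background per sample, and 28316 to 29671 probes were well above background. Of 12 PrEn markers 6 were in the study's list, which was itself selected for fraction differences, and all 6 were called higher in V+S- than V-S+ (median difference 1.04 on the log2 scale), beside 5.73% of all probes, with Gata6 at -2.62 and -2.67 in V-S+ against -1.5 and -1.98 in V+S-. Of 11 undifferentiated ES cell markers 5 were in the list, and Nanog, Pou5f1 and Dppa3 were called lower there, beside 1.28% of all probes. Gata6 was dim in V-S+, at 1.87 and 1.71 times background. A fall in the number of cells that make a transcript and a fall in transcript per cell cannot be told apart in such bulk samples. Dppa3, Nanog and the PrEn markers moved along the same fractions as the zinc finger genes below, and their part in those results was not tested.

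The probes of 3 members are shown because they stand for the 3 patterns that follow, Zscan4c for a peak in V-S-, Zfp57 for low values in the Venus-positive fractions and Zfp800 for high ones. Capitals mark a pair of cysteine codons set as in a zinc finger, with 2 codons between them, in a reading frame that has no stop in the probe.
Zscan4c: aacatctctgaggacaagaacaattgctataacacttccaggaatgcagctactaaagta
Zfp57: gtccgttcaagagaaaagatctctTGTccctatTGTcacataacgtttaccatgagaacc
Zfp800: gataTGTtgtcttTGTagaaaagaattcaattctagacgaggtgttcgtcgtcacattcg
Such a pair was found in 3 of the 16 member probes (Zfp57, Zfp800 and Zfp428) and in 3.49% of all 42006 probes. The G and C content of the member probes ran from 35% to 55.0%, against a median of 43.3% on the array. A search for runs of 20 shared bases found another array probe for Zfp371 and none for the other 15 members.

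Promoter windows, 250 bases before to 50 after a start site, came from RefSeq (GRCm38.p6) for 14 of the 16 members, in 21 windows. The window of Zscan4c held 4 CpG pairs, and 38% of all 32851 windows, whose median was 7, held as few. The windows of Zfp57 held 4, 6 and 9, and those of the other members between 8 and 41. The window of Zscan4c, chr7:11005495-11005794 on the plus strand, is shown with TATAAA in capitals, which lies 54 bases before the start site, and that of Zfp768, chr7:127345265-127345564 on the minus strand, with its 35 CpG pairs in capitals.
Zscan4c: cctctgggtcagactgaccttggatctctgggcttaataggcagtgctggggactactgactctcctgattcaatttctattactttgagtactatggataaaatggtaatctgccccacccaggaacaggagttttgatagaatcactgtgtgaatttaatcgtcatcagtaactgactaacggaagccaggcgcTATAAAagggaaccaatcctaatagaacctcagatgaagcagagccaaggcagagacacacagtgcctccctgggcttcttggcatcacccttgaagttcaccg
Zfp768: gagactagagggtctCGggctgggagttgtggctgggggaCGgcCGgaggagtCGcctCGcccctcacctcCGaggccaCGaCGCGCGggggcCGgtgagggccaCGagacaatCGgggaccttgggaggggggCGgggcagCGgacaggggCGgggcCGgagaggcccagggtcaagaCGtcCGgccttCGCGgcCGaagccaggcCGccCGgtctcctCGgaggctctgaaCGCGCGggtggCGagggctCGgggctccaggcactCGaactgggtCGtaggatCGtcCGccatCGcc
On either strand, TATAAA was found for 4 of the 14 members and in 13.6% of all windows, AGATAA, letters that GATA factors read, for 4 and in 11.2%, TGACTCA, the AP-1 letters, for 2 and in 5.2%, and TGCCGC, the letters bound by Zfp57 when methylated, for 2 and in 11.6%. A member counted if any of its windows held the letters, so these counts of members are not on the scale of the shares of single windows. Set on their TATAAA letters, the windows of the Zscan4b, Zscan4d and Zscan4f copies matched that of Zscan4c at 95.3%, 97.2% and 99.3% of positions. Genes of this family are close copies of each other, and whether the Zscan4c probe also reads them was not tested.

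Across the 4 fractions the 16 members fell into 3 patterns. In V+S-, 8 members had their highest mean, namely Zfp703, Zfp54, Zfp768, Zbtb4, Zfp467, Zfp672, Zfp426 and Zfp365, while Zfp36 had its highest in V+S+. Zfp800 had equal means in V+S+ and V+S-, both -0.58 as rounded, above those of the other fractions. Zfp294, Zfp371, Zfp57, Zfp566 and Zscan4c were highest in V-S-, and Zfp428 in V-S+. By the F-test over all fractions, 7 of the 16 passed at an FDR of 0.05, beside 7.38% of all 29483 tested probes. Of the 1998 named probes 912 passed. With clone as a block all 16 passed, beside 43.5% of all probes and 1986 of the 1998 named ones. Without the block the count was 0 when any 1 sample of V-S+, V-S- or V+S- was left out, as were 0% of all probes, and 12 without V+S+ of clone 5.1, beside 15.3%. Since the list itself was selected by such a test, these counts are a description. Samples of 2 fractions often lie apart. In V+S- against V-S+ both samples were above both others for 10509 of all 29483 probes, and below them for 8668. For the wider splits given below, no share over all probes was counted.

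**Figure D1:**
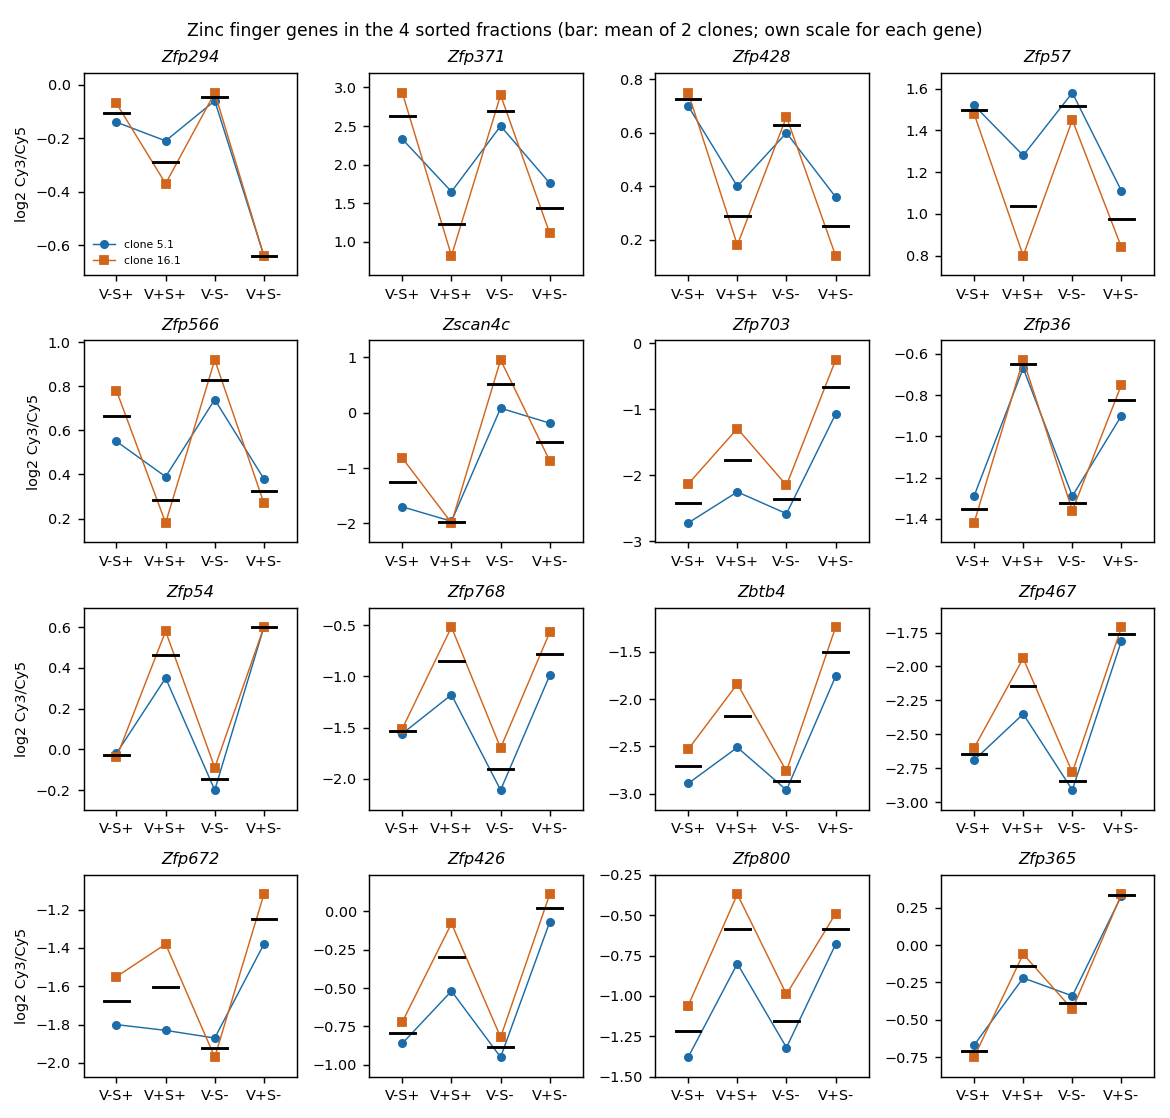
Log2 ratio of sample to reference for each of the 16 zinc finger genes (y axis, own scale per gene) in the 4 sorted fractions (x axis); points joined by a line are the 4 samples of 1 clone and black bars the mean of 2. Zscan4c peaks in V-S-, 5 genes from Zfp294 to Zfp566 sit lower in the Venus-positive fractions, and for the remaining 10 V+S- lies above V-S+.

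Zfp703, a co-repressor of the NET family, had the widest range among the members that were highest in V+S-. Its log2 ratio was -2.72, -2.25, -2.58 and -1.07 in clone 5.1 and -2.13, -1.29, -2.15 and -0.25 in clone 16.1, in the fraction order. Both V+S- samples lay above all 6 others, and the clones kept a distance of 0.43 to 0.96 in every fraction. The difference of V+S- from V-S+ was 1.76 ± 0.41 (SE; adjusted p = 0.0385) and from V-S- 1.71 ± 0.41 (adjusted p = 0.0393), and both calls were lost with scanner-processed signals and with the authors' log10 values. From V+S+ it was 1.11 ± 0.41 (adjusted p = 0.289), and this passed with clone as a block (adjusted p = 0.008).

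Zbtb4, a BTB protein that binds methylated CpG, was likewise highest in V+S-. In the fraction order its values were -2.89, -2.51, -2.96 and -1.76 in clone 5.1 and -2.53, -1.84, -2.76 and -1.24 in clone 16.1. In each clone V+S- was highest, V+S+ second and V-S- lowest. V+S- was called above V-S+ by 1.21 ± 0.27 (adjusted p = 0.0345) and above V-S- by 1.36 ± 0.27 (adjusted p = 0.0257). Against V+S+ the difference of 0.67 ± 0.27 passed only with clone as a block (adjusted p = 0.323 without and 0.017 with it).

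Zfp365, also known as DBZ and active at the centrosome, differed little between clones. Its ratio was -0.67, -0.22, -0.34 and 0.33 in clone 5.1 and -0.75, -0.06, -0.43 and 0.34 in clone 16.1, in the fraction order. It also stood higher in V-S- than V-S+, by 0.33 and 0.32, where the other 9 members of its kind differed by -0.56 to 0.14 in single clones. That difference had an adjusted p of 1 over all probes. In V+S- against V-S+ it was called higher, by 1.05 ± 0.08 (adjusted p = 0.0113).

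Zfp467, also called EZI, and Zfp426, a KRAB protein, gave values close to each other in shape. Zfp467 was at -2.69, -2.35, -2.91 and -1.81 in clone 5.1 and -2.60, -1.94, -2.78 and -1.71 in clone 16.1, in the fraction order. Zfp426 was at -0.86, -0.52, -0.95 and -0.07 in clone 5.1 and -0.72, -0.08, -0.82 and 0.11 in clone 16.1. In both genes the 2 samples of each Venus-positive fraction lay above all 4 Venus-negative ones. Both were called higher in V+S- than V-S+, Zfp467 by 0.89 ± 0.14 (adjusted p = 0.0177) and Zfp426 by 0.81 ± 0.16 (adjusted p = 0.0257).

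Zfp54, a KRAB gene, stood at -0.02, 0.35, -0.20 and 0.60 in clone 5.1 and -0.04, 0.58, -0.09 and 0.60 in clone 16.1, in the fraction order. The 4 Venus-positive samples were thus apart from the 4 others, and V+S- was called above V-S+ by 0.63 ± 0.09 (adjusted p = 0.0158). Zfp768, a protein with a row of fingers, stood at -1.56, -1.18, -2.11 and -0.99 in clone 5.1 and -1.51, -0.52, -1.70 and -0.57 in clone 16.1. V+S- was called above V-S- by 1.12 ± 0.26 (adjusted p = 0.0345), while V+S- against V-S+ passed only with clone as a block (0.75 ± 0.26; adjusted p = 0.0918 without and 0.00475 with it). Zfp672 was the dimmest member, at 1.85 to 3.97 times background. It was at -1.80, -1.83, -1.87 and -1.38 in clone 5.1 and -1.55, -1.38, -1.97 and -1.12 in clone 16.1, and was called only in V+S- against V-S- (0.67 ± 0.17; adjusted p = 0.0456), a call lost with the first scan alone, without the filter on dim probes and with the authors' log10 values.

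Zfp36 encodes tristetraprolin, which binds AU-rich elements of messenger RNAs with fingers of the CCCH kind and leads to their decay. Its ratio, in the fraction order, was -1.29, -0.67, -1.29 and -0.90 in clone 5.1 and -1.42, -0.63, -1.36 and -0.75 in clone 16.1. Here V+S+ was highest in both clones. The difference of V+S+ from V-S+ was 0.71 ± 0.08, with an adjusted p of 0.142 without and 0.00376 with clone as a block. Zfp800, another finger gene, was at -1.38, -0.80, -1.32 and -0.68 in clone 5.1 and -1.06, -0.37, -0.99 and -0.49 in clone 16.1. Its difference between V+S- and V+S+ was 0.00, with a 95% interval from -0.47 to 0.46.

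Zfp36 is itself an immediate early gene, and 8 of 18 genes of an immediate early and AU-rich element list were named. All 8 had a positive difference in V+S+ against V-S+ in both clones (median 0.95 on the log2 scale, against 0.01 over all tested probes), which 39.7% of all probes and 1238 of the 1998 named ones also had. Of the 8, 0 were called without and 6 with clone as a block, beside 0% and 3.87% of all probes. Of the named probes 0 were called higher without and 510 with the block. Cyr61, a secreted matrix protein, was at -2.03 and -1.99 in V-S+ and at -1.06 and -0.61 in V+S+. Jun, a subunit of AP-1, was at -2.72 and -2.33 in V-S+ and at -1.77 and -1.16 in V+S+. For all 8 genes both V+S+ samples lay above both V-S+ samples, as they did for 8131 of all 29483 probes and 1090 of the 1998 named ones. Cyr61 and Jun had the largest differences of the 8, and Fos (0.37) and Ier5 (0.53) the smallest. In V+S- against V-S+, 5 of the 8 were called higher, beside 5.73% of all probes and 962 of the 1998 named ones.

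The other 5 genes ran the other way, low where Venus was present. Zfp57, the imprint factor with a KRAB domain, was at 1.52, 1.28, 1.58 and 1.11 in clone 5.1 and 1.48, 0.80, 1.45 and 0.84 in clone 16.1, in the fraction order. The 4 Venus-positive samples were below the 4 Venus-negative ones. V+S- differed from V-S+ by -0.52 ± 0.17, which is 1.5-fold or less, with an adjusted p of 0.0776 without and 0.00768 with clone as a block, and it was not called. Among imprint and KRAB cofactor genes 3 of 15 were named, and of these Dppa3, which protects methylation in the early embryo, and Uhrf1, which guides Dnmt1, were called lower in V+S- than V-S+, by 1.75 and 0.69 (log2 differences -1.75 and -0.69). Lower calls made up 1.28% of all probes and 231 of the 1998 in the list, which was selected for such differences. Trim28, the partner of KRAB proteins, was at 0.57 and 0.60 in V-S+ and at 0.03 and 0.09 in V+S-, a difference of -0.53 ± 0.11 (adjusted p = 0.0314) that was under the fold threshold. In V+S- against V-S- Trim28 was called lower (log2 difference -0.77 ± 0.11; adjusted p = 0.0153), as were Dppa3 and Uhrf1. Lower calls there made up 1.49% of all probes and 263 of the 1998 in the list.

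Zfp371, now Zscan5b, was at 2.33, 1.65, 2.50 and 1.76 in clone 5.1 and 2.93, 0.82, 2.90 and 1.11 in clone 16.1, in the fraction order. The step from V-S+ to V+S+ measured -2.11 in clone 16.1 and -0.68 in clone 5.1. The mean difference in V+S+ against V-S+ was -1.40 ± 0.36, with an adjusted p of 0.176 without and 0.0323 with clone as a block. The other probe, which shares 59 bases with it, was at 2.3 and 2.88 in V-S+ and at 1.62 and 0.87 in V+S+, a difference of -1.35 ± 0.34. With 59 bases in common the probes are no independent reading of the gene.

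Zfp566, a finger protein, was at 0.55, 0.39, 0.74 and 0.38 in clone 5.1 and 0.78, 0.18, 0.92 and 0.27 in clone 16.1, in the fraction order. Zfp428 was at 0.70, 0.40, 0.60 and 0.36 in clone 5.1 and 0.75, 0.18, 0.66 and 0.14 in clone 16.1. In both genes every Venus-positive sample lay below every Venus-negative one, and neither reached the fold threshold. Zfp294, now Ltn1, is a RING ubiquitin ligase of stalled ribosomes and reads no DNA; it was at -0.14, -0.21, -0.06 and -0.64 in clone 5.1 and -0.07, -0.37, -0.03 and -0.64 in clone 16.1. It was the only one of the 16 called lower in V+S- against V-S-, by 0.59 ± 0.08 (log2 difference -0.59; adjusted p = 0.0124).

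Zscan4c stood apart from both groups. In the fraction order its ratio was -1.70, -1.96, 0.08 and -0.19 in clone 5.1 and -0.82, -1.99, 0.95 and -0.87 in clone 16.1. V-S- was highest and V+S+ lowest in both clones. The distance from V-S+ to V-S- came to 1.78 in clone 5.1 and to 1.77 in clone 16.1. With an SE of 0.40 and a 95% interval from 0.81 to 2.74, this difference had an adjusted p of 1, and of 0.379 with clone as a block. In that comparison 0 of 29483 probes passed, 834 had an unadjusted p under 0.05, and 2 of these were members, Zscan4c and Zfp365. Over all 4 fractions the F-test passed at an adjusted p of 0.0485, and this call was lost under median centring, without the filter on dim probes, with scanner-processed signals, with the authors' log10 values and whenever any 1 of the 8 samples was left out.

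Of 22 genes of the two-cell embryo list, 5 were named: Tcstv1, Tcstv3, Tmem92, Tdpoz5 and Eif1a. Tdpoz5 was dim, at 1.53 to 2.64 times background. In both clones V-S- exceeded V-S+ for all 5 (median difference 1.84, against 0.00 over all tested probes), as it did for 35% of all tested probes. Tcstv3, a two-cell transcript, was at -0.27 and 0.55 in V-S+ and at 1.90 and 2.37 in V-S-. Tmem92 was at -0.71 and -0.17 in V-S+ and at 1.22 and 1.58 in V-S-. None of these differences passed the test over all probes. Their values followed those of Zscan4c with Pearson's r between 0.972 and 0.988 over the 8 samples, and the points share arrays and clones.

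For Zscan4c the clones differed in how far the Venus-positive fractions lay from V-S+; clone 16.1 minus clone 5.1 was 0.88, -0.03, 0.87 and -0.68 in the fraction order. In clone 5.1 V+S- was near V-S-, at -0.19 against 0.08, and above V-S+ by 1.51. In clone 16.1 V+S- was at -0.87, near V-S+ at -0.82. The two-cell genes split in the same way, with a median difference of V+S- from V-S+ of 1.68 in clone 5.1 and 0.05 in clone 16.1. Their median difference for V+S+ from V-S+ took values of -0.04 in clone 5.1 and -1.23 in clone 16.1. There is 1 sample per clone and fraction, so the split between clones was not tested.

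**Figure D2:**
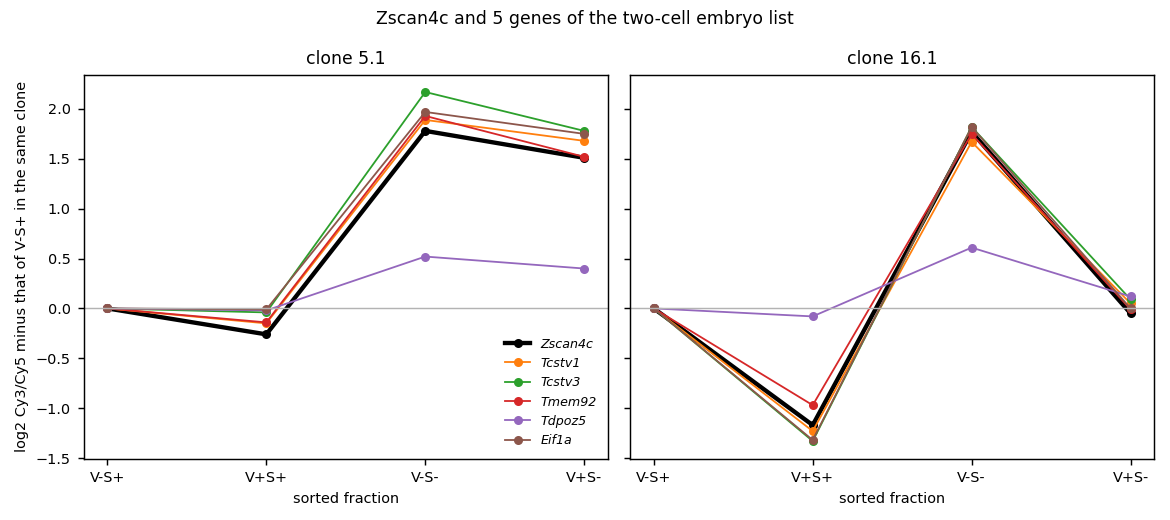
Log2 ratio minus that of the V-S+ sample of the same clone (y axis) for Zscan4c (thick black line) and 5 genes of the two-cell embryo list (coloured lines) in the 4 fractions (x axis), clone 5.1 on the left and 16.1 on the right. Zscan4c is at 1.78 and 1.77 in V-S-, and in V+S- it is at 1.51 in clone 5.1 and at -0.04 in clone 16.1.

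In V+S+ against V-S+, which compares Venus within SSEA-1 positive cells, 0 of the 16 members were called by limma, as were 0% of all 29483 probes, while 12 members had an unadjusted p under 0.05, beside 5514 of all probes and 1364 of the 1998 named ones. With clone as a block 5 members were called, Zfp703, Zfp36, Zfp768 and Zfp800 higher and Zfp371 lower, beside 3.87% and 1.75% of all probes. Of the 1998 named probes 510 were then called higher and 175 lower. By their own values, 9 members were higher and 6 lower in V+S+ in both clones, beside 39.7% and 35.4% of all probes. Of the named list 1238 were higher and 660 lower in both clones. Zfp672 differed in sign between clones. The difference was larger in clone 16.1 than in clone 5.1 for all 16 members, for 94.7% of the named list and for 71.1% of all tested probes.

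In V+S- against V-S+, the SSEA-1 negative, Venus-positive cells against the Venus-negative ES fraction, 6 of the 16 were called, all higher: Zfp703, Zfp54, Zbtb4, Zfp467, Zfp426 and Zfp365. Of all probes 5.73% were called higher, and 962 of the 1998 named ones. Lower calls were 0 members, beside 1.28% of all probes and 231 of the 1998 named ones. With clone as a block the count was 8 higher and 1 lower, beside 8.87% and 3.02%. Of the named probes the block gave 1096 higher and 317 lower. Without 1 sample the count was 0 when V-S+ of clone 5.1, V-S+ of clone 16.1 or V+S- of clone 16.1 was left out, with 0.00339%, 0.00678% and 0% of all probes called. It was 3 without V-S- of either clone or V+S- of clone 5.1, beside 3.26%, 3.26% and 4.05%, and 9 without V+S+ of either clone, beside 8.97%. The count and the share over all probes thus moved together, from 6 and 7% with all samples. Scanner-processed signals left Zfp467, Zfp426 and Zfp365 called higher and added Zfp294 as lower (7.21% of all probes in either direction), the Cy3 channel alone lost Zfp54 and added Zfp294 as lower (6.87%), and with the authors' log10 values Zfp365 was the 1 member called (1.57%).

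In V+S- against V-S-, 8 of the 16 were called higher, beside 6.3% of all probes, and Zfp294 lower, beside 1.49%. Of the 1998 named probes 1060 were called higher and 263 lower. Zfp768 and Zfp672 joined the 6 genes above. The count of 9, beside 7.79% in either direction, was 5 without V-S+ of either clone, beside 4.35%, and 0 without V-S- of either clone or V+S- of clone 16.1, beside 0%. Median centring gave 10 higher and 0 lower (13.2% of all probes in either direction), the Cy3 channel alone 8 higher and 3 lower (8.49%), and the authors' log10 values 3 higher and 1 lower (2.58%). With clone as a block there were 8 higher and, with Zfp371 added, 2 lower, beside 8.96% and 3.32%. Of the 1998 named probes the block gave 1119 higher and 343 lower.

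**Figure D3:**
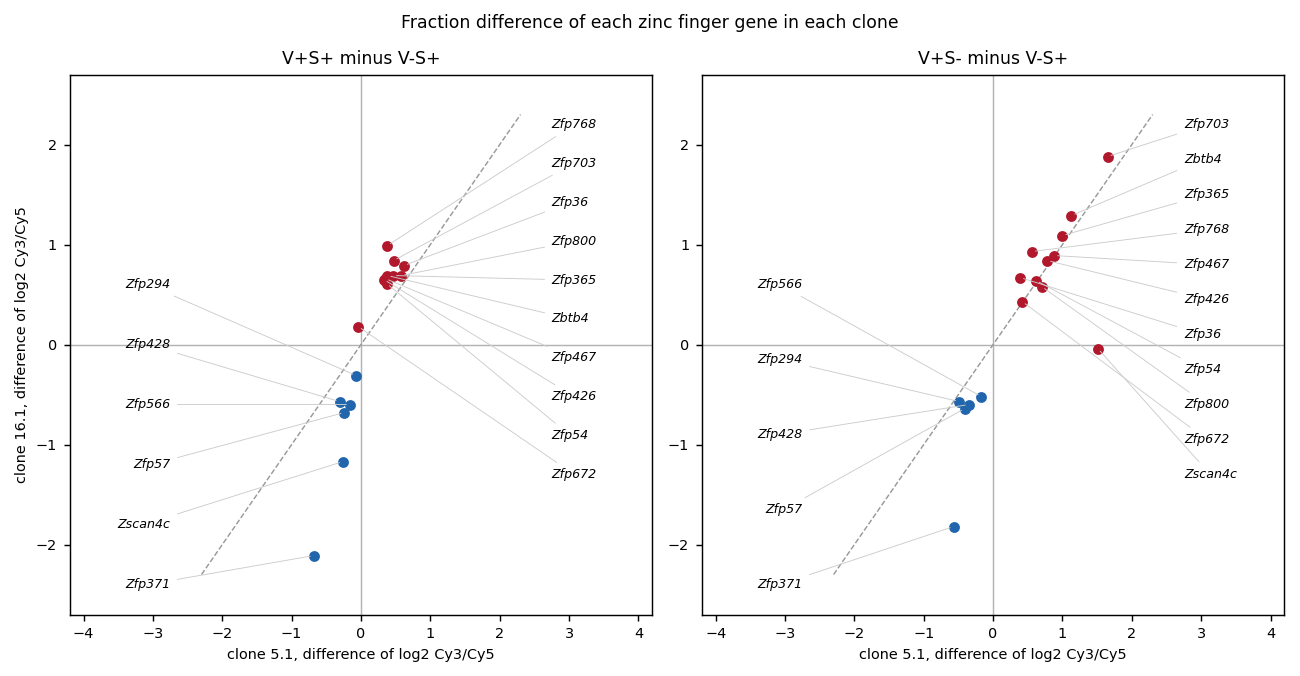
Difference of log2 ratio in clone 5.1 (x axis) against that in clone 16.1 (y axis) for the 16 genes, V+S+ minus V-S+ on the left and V+S- minus V-S+ on the right; red points have a positive and blue a negative sum, and the dashed line marks equal differences. On the left all 16 are larger in size in clone 16.1, and on the right Zscan4c lies far from the line, at 1.51 and -0.04.

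In V+S- against V+S+, SSEA-1 within Venus-positive cells, 0 members were called by limma, as were 0% of all probes, with 6 members at an unadjusted p under 0.05, beside 4429 of all probes and 860 of the 1998 named ones. With clone as a block Zfp703 and Zbtb4 were called higher, beside 1.75% of all probes, and 0 lower, beside 0.353%. Of the 1998 named probes the block gave 340 higher and 46 lower. Zscan4c had the widest difference of the 16, 1.45 ± 0.40, higher in V+S- by 1.77 in clone 5.1 and 1.13 in clone 16.1 (adjusted p = 0.201, and 0.0509 with clone as a block). In V-S- against V-S+, SSEA-1 within Venus-negative cells, 0 members and 0% of all probes were called, with and without the block. Apart from Zscan4c the differences lay between -0.37 for Zfp768 and 0.33 for Zfp365.

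The members were grouped by the sign of V+S- against V-S+ in these same 8 samples, with Zscan4c set apart. The signs of the correlations within and between the groups were thus in large part fixed in advance. Among the 10 with V+S- above V-S+ apart from Zscan4c, Pearson's r over the 8 samples lay between 0.56 and 0.99, and among the 5 lower ones between 0.77 and 0.97. Between the groups it lay between -0.96 and -0.66. Zscan4c correlated with the other 15 between -0.57 and 0.68. The list was selected for differences among the fractions, so such values are a description of 8 shared samples.

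**Figure D4:**
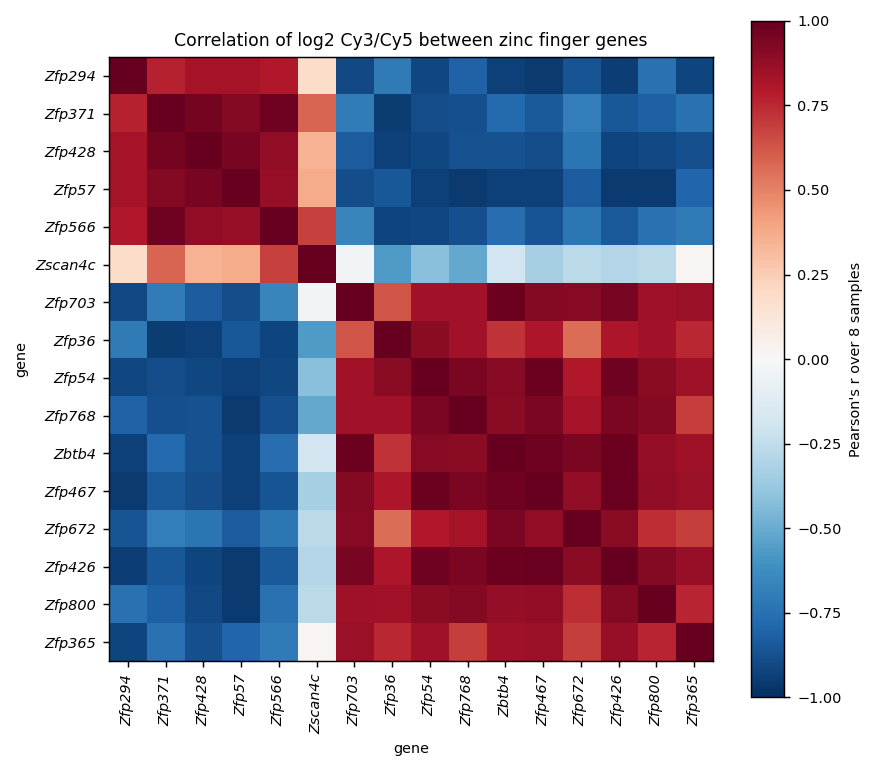
Pearson's r of the log2 ratio over 8 samples between each pair of the 16 genes (both axes), red for positive and blue for negative values. The 5 genes from Zfp294 to Zfp566 and the 10 from Zfp703 to Zfp365, grouped by V+S- against V-S+ in the same samples, form blocks of opposite sign. Zscan4c is pale against both, between -0.57 and 0.68.

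The clones themselves were compared with fraction in the model. The list was not selected on the clone term, but in a test among fractions the clones are the replicates. The distance between the clones therefore enters the error of such a test. How far the selection bears on the values here was not tested. In the list 52 of 1998 probes were called higher and 0 lower, and 1143 had an unadjusted p under 0.05, as did 11688 of all 29483. Zfp703 was the 1 member called, higher in clone 16.1 by 0.70 ± 0.09 (1.63-fold; adjusted p = 0.00358), beside 1.39% of all probes called higher and 0.746% lower. In the fraction order the distance between the clones was 0.59, 0.96, 0.43 and 0.82. Zfp800 (0.32 ± 0.05; adjusted p = 0.00661), Zbtb4 (0.44 ± 0.08; 0.00948), Zfp768 (0.39 ± 0.09; 0.0252) and Zfp426 (0.22 ± 0.06; 0.0399) passed the adjusted p but not the fold threshold. At the adjusted p alone 5 members passed, beside 26.2% of all probes. Zfp371 was higher in clone 16.1 in V-S+ and V-S-, by 0.60 and 0.39, and lower in V+S+ and V+S-, where clone 16.1 minus clone 5.1 was -0.83 and -0.65.

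**Figure D5:**
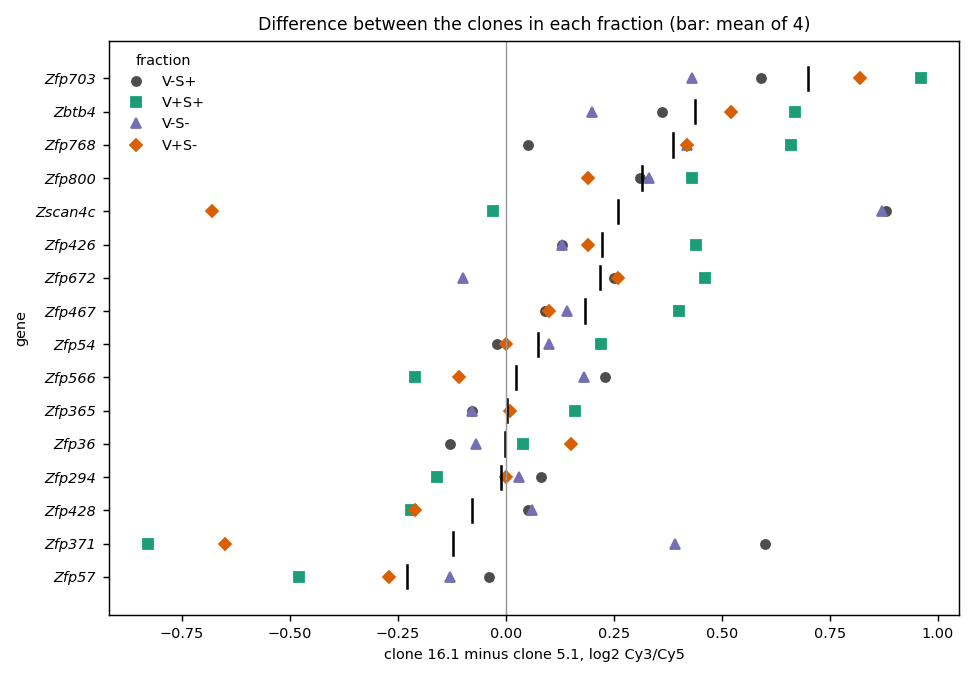
Log2 ratio in clone 16.1 minus that in clone 5.1 (x axis) for each gene (y axis, ordered by mean); each symbol is 1 fraction, and the black bar the mean of 4. Zfp703 is above 0 in all 4 fractions, from 0.43 to 0.96, and Zscan4c and Zfp371 spread to both sides of 0.

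The study's list names 24 other zinc finger genes, found by the words in their gene names. In V+S- against V-S+ 13 of them were called higher and 4 lower, beside the 5.73% and 1.28% of all probes. In the named list 962 were called higher and 231 lower, and the selection of the list again makes this a description. Zfpm2, a partner of GATA factors also known as FOG2, was at -3.09, -2.38, -3.30 and -1.86 in clone 5.1 and -2.78, -1.66, -2.86 and -1.44 in clone 16.1, in the fraction order, and was called higher in V+S- by 1.28 ± 0.29 (adjusted p = 0.0338). Zfpm1, the related FOG1, was at -1.27, -1.37, -0.98 and -0.51 in clone 5.1 and -1.35, -1.34, -1.18 and -0.61 in clone 16.1, and V+S- was called higher by 0.75 ± 0.09 (adjusted p = 0.0122). In V+S+ against V-S+ Zfpm2 differed by 0.91 ± 0.29 (adjusted p = 0.206, and 0.00358 with clone as a block) and Zfpm1 by -0.04 ± 0.09, and the difference between the genes was not tested.

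Glis3, a Krüppel-like factor, was at -1.45, -1.49, -1.37 and -0.59 in clone 5.1 and -1.15, -1.0, -1.24 and -0.22 in clone 16.1, in the fraction order, and V+S- was called above V-S+ by 0.90 ± 0.20 (adjusted p = 0.0353). Zkscan2, with KRAB and SCAN domains, was called higher by 0.62 ± 0.10 (adjusted p = 0.0179), and Zfhx3, with homeodomains beside its fingers, by 0.81 ± 0.11 (adjusted p = 0.0153). Ikzf4, the Ikaros family member Eos, was at 1.72 and 2.00 in V-S+ and at 2.44 and 2.47 in V+S-, and passed only with clone as a block (0.59 ± 0.20; adjusted p = 0.0871 without and 0.00747 with it). Its relative Ikzf2, Helios, was dim, at 1.61 to 2.46 times background, differed by 0.39 ± 0.12 and was not called. Zmym1 lay the other way, at 1.00 and 1.03 in V-S+ and at 0.65 and 0.45 in V+S-, a difference of -0.46 ± 0.10 (adjusted p = 0.0331) under the fold threshold. The 4 genes called lower, named here after their values were seen, were Zcwpw1 (log2 difference -0.84 ± 0.14; adjusted p = 0.0188), Zcchc10 (-0.67 ± 0.10; 0.0174), RP23-275N21.2 (-0.66 ± 0.13; 0.029) and RP23-330D3.5 (-0.59 ± 0.13; 0.0322). RP23-330D3.5 was dim, at 2.11 to 3.46 times background.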

How the data were processed

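RNA of 8 samples was read on 2-colour arrays of 60-base probes, sample in Cy3 and reference in Cy5. The authors deposited the intensity of each spot from 16 scanner files (2 scans per array, Agilent Feature Extraction, version not given in the sources used here), and a table of log10 values, whose deviations per probe followed scanner-processed ratios (r = 0.997). Intensities were background-corrected (normexp, offset 50), normalised by loess (limma 3.58.1, R 4.3.3), spots flagged as outliers were left out, and scans were averaged. The 29483 probes well above background in all Cy3 files of at least 1 fraction were fitted with fraction as the term, all 8 samples together. Calls needed a Benjamini-Hochberg adjusted p under 0.05 and more than 1.5-fold. All 4 fractions of a clone come from 1 cell line, and deviations correlated between fractions (r 0.59 to 0.81 across probes), so clone was also entered as a block. Without the block, p-values measure the spread between 2 clones within the fractions. With the block, and in the comparison of the clones, they measure how far the distance between the clones varies across the fractions.

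Symbols came from the study's supplementary list of differing genes (1998 rows; 171 not used here), without its values. Named were all members, up to 8 genes per list and 8 other zinc finger genes, to which 4 called lower were added after their values were seen. Members and lists were chosen with earlier results of these data known. In the two-cell embryo list, 1 further gene is not reported here, and the values of that list leave it out. The fit was tested on simulated data. Alternatives changed background, scaling, filter, scan, values, block, fold threshold or left out a sample.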

Additional observations from a re-analysis of the deposited data

Results flagged for a closer look

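Zscan4c in V+S- against V-S+ differed between the clones. The difference of log2 ratio was 1.51 in clone 5.1 and -0.04 in clone 16.1. The value of -0.04 is smaller in size than the SD between repeat scans of its arrays (0.09 for V-S+ and 0.07 for V+S-, over all probes). Its sign is therefore not read as a reversal. With 1 sample per clone and fraction, the difference between the clones was not tested.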

How the results depend on the processing

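With clone as a replicate block, members called were 5 in V+S+ against V-S+, 2 in V+S- against V+S+ and 16 by the F-test, and the block ended no call. Scanner-processed signals gave 0 members by the F-test, as the authors' log10 values did, with 0% of all probes passing under either. The authors' log10 values gave 1 in V+S- against V-S+ and 4 in V+S- against V-S-. Without the fold threshold 5 members passed between clones. Leaving out 1 sample gave 0 to 9 members in V+S- against V-S+, 0 to 10 in V+S- against V-S-, 0 to 12 by the F-test, and 1 between clones in every case. V+S+ against V-S+, V-S- against V-S+ and V+S- against V+S+ stayed at 0 whichever sample was left out. Of 895 other values, for Zscan4c and for members called with or without the block, each under 1 alternative, 714 kept their side of the threshold, 145 lost it, 36 gained it and 0 changed direction; the causes were not tested. Under median centring the median of all probes was -0.12 in V-S- against V-S+ and 0.13 in V+S- against V-S-, where it was 0.00 and 0.01. Precision is limited by having only 2 arrays for each fraction, and Zfp672, at 1.85 to 3.97 times background, is the dimmest member.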

Other observations

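Among the 1998 named probes, the best match to a member over the 8 samples reached a Pearson's r between 0.970 (Zfp672) and 0.999. For Zscan4c the 3 nearest were the predicted genes LOC619649 (0.997), EG226955 (0.993) and LOC432715 (0.992). For Zfp57 they were Arhgap9 (0.998), Tcfap2c (0.996) and Dpf1 (0.996), and for Zfp294 Gart (0.994), Sall4 (0.994) and Timeless (0.991). Zfp703 was followed by Il15, Mtvr2 and Ticam1 (each 0.998), Zbtb4 by Plk2, 2610528K11Rik and Tec (each 0.998), and Zfp36 by Insm1 (0.981), F2rl1 (0.980) and Cnn2 (0.976). The points share arrays and clones, and all were selected for differences among fractions.

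Fgf5, an epiblast ligand and the 1 named gene of the list for other lineages, was at -0.69, 0.42, -0.44 and 0.61 in clone 5.1 and -0.34, 1.36, 0.18 and 1.27 in clone 16.1, in the fraction order. V+S- was called above V-S+ by 1.46 ± 0.38 (adjusted p = 0.0497), and clone 16.1 above clone 5.1 by 0.64. The Venus-positive samples lay above all 4 others.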
